A study of Mus musculus with 10 samples.

Results

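MiR-342 and miR-345 are microRNAs made from 2 hairpins of mouse chromosome 12, on the side of the chromosome that also carries the immunoglobulin heavy chain locus (IgH). The rows examined were the 4 mature arms, mmu-miR-342-3p, mmu-miR-342-5p, mmu-miR-345-5p and mmu-miR-345-3p (mmu for mouse, left out from here on), taken by name out of 2015 microRNA rows and 6968 small RNA rows in all. The rows of their 2 hairpins, Mir342 and Mir345, were followed beside them.

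Small RNA was sequenced from CD43- splenic B-cells in 10 libraries. Wild-type (wt) mice, mice lacking the 3'RR (the super-enhancer at the 3' end of IgH) and mice lacking Eµ (the enhancer between the JH segments and Cµ) were used, all 3 on the same inbred background, male and female, at 8 to 12 weeks of age. The deletion in the Eµ-deficient line is that of Eµ with its flanking matrix attachment regions. Cells were cultured for 2 days without stimulation (NS) or with LPS, a bacterial ligand of TLR4 that drives B-cell proliferation, at a dose of 5 µg/ml per the sample descriptions. Wt and 3'RR-deficient cells gave 2 libraries per condition and Eµ-deficient cells 1, and each library came from a pool of 2 mice. Pools and not animals are thus the replicates, and p-values measure the spread between these pools. The methods of the study also speak of cells taken before stimulation, and if that holds here the effects of LPS and of culture cannot be told apart.

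A microRNA hairpin is cut out of a longer transcript by Drosha and then by Dicer, which leaves a duplex of a 5p and a 3p arm. One arm is usually loaded into an Argonaute protein and kept, and the other is mostly degraded. The loaded arm finds its target mRNAs mainly through its seed, bases 2 to 8. MiR-342 lies within an intron of Evl, which encodes an actin regulator of the Ena/VASP family, and miR-342-3p is abundant in cells of the blood lineages.

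The mature sequences are shown because the 4 arms differ in seed, so that no level of one arm stands for another. They are RefSeq sequences (GRCm38.p6), written 5′ to 3′ with the seed in capitals.
miR-342-3p: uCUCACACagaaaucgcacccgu
miR-342-5p: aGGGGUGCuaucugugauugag
miR-345-5p: gCUGACCCcuaguccagugcuu
miR-345-3p: cCUGAACUaggggucuggagac
All 4 seeds were different, and 0 other mature mouse microRNAs in the RefSeq table shared any of them. The GC content was 52.2% in miR-342-3p, 50% in miR-342-5p and 59.1% in each arm of miR-345. The median of the 497 tested mature microRNAs with a RefSeq sequence was 50%.

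The hairpins are shown with both mature arms in capitals, since the count table keeps a separate row for reads that were given to the hairpin.
Mir342: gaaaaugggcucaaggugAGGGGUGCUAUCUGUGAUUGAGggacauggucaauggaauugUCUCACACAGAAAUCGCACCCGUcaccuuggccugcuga
Mir345: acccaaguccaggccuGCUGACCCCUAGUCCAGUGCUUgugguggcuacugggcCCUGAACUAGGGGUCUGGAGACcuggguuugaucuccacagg
Mir342 is 99 nt long and Mir345 is 96 nt long. In the minimum free energy fold, computed with RNAfold, 17 bases of the 5p arm of miR-342 paired with the 3p arm and 14 did so in miR-345.

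Mir342 lies at chr12:108658620-108658718 on the plus strand (GRCm38), with the 5p arm at chr12:108658638-108658659 and the 3p arm at chr12:108658680-108658702. In GENCODE M21 it is in an intron of Evl in the same orientation, inside 5 of the 7 Evl transcripts and over 0 Evl exons. Mir345 lies at chr12:108836973-108837068, also on the plus strand, with its 5p arm at chr12:108836989-108837010 and its 3p arm at chr12:108837027-108837048. Both miR-345 arms are inside introns of 2 of the 5 transcripts of Slc25a47, a mitochondrial carrier gene, while the last 5 bases of the hairpin are in the first exon of another Slc25a47 transcript. The 2 hairpins are 178 kb apart. Ighm, the constant region gene of IgM, starts 4.76 Mb from Mir342 and 4.58 Mb from Mir345. Between them and IgH is the imprinted region of Dlk1 and Meg3, which starts 616 kb beyond Mir345.

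**Figure D1:**
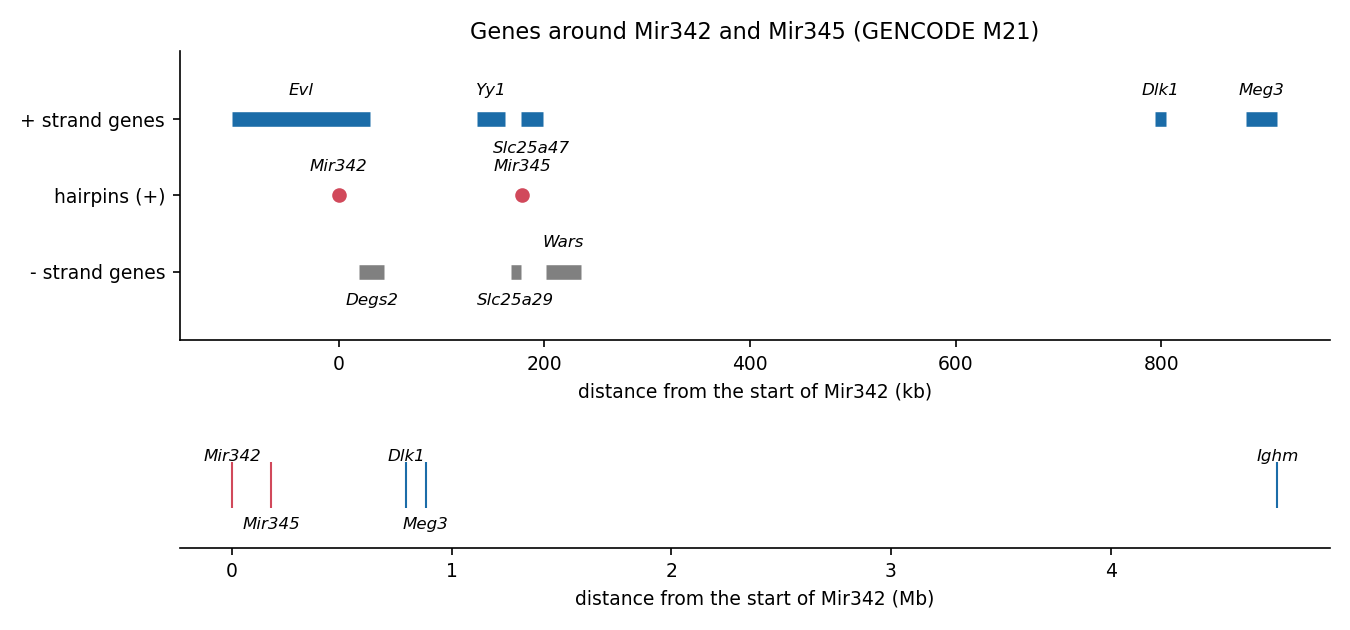
Genes around Mir342 and Mir345, drawn to scale as distance from the start of Mir342, in kb above and in Mb below. Mir342 is inside Evl and Mir345 at the start of Slc25a47, 178 kb further on, while Ighm is 4.76 Mb from Mir342.

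Library totals ranged from 3482540.0 to 18144016 counts, and microRNA rows held 51.4% to 82.1% of them. Both second NS libraries, of wt and of 3'RR-deficient cells, were the shallowest and stood apart from the other libraries of their groups. Across 988 microRNA rows, their differences from the first replicates correlated with r = 0.59 between the genotypes, a description over rows measured in the same libraries. The replicate difference also followed GC content there, by 1.07 (wt) and 0.87 (3'RR-deficient) log2 units per 10 percentage points of GC over the 497 microRNAs, against -0.25 and -0.19 in the LPS pairs. The LPS differences of the 4 arms and their hairpins are therefore given with and without these 2 libraries. Of the microRNAs taken as lymphocyte markers, 5 of 5 were detected in both conditions, and their summed level was between 87970.0 and 255684 CPM (microRNA counts scaled to a common library size, after TMM normalization) in the 10 libraries.

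MiR-342-3p was the abundant arm. It held 5075 and 6241 CPM in the wt NS libraries (replicates 1 and 2), 7139 and 6318 CPM in the 3'RR-deficient ones and 5018 CPM in the Eµ-deficient one. With LPS it held 2159 and 2034 CPM in wt, 3040 and 2125 CPM in 3'RR-deficient and 2637 CPM in Eµ-deficient cells. Every NS library was thus above every LPS library in all 3 genotypes. Of 988 microRNA rows, 4.45% had all 5 LPS libraries below all 5 NS libraries. Its rank among 1302 mature rows went from 22 to 37 in the NS libraries to 36 to 52 in the LPS libraries. These values rest on 10361 to 54047 reads, so that counting error is small beside the spread between libraries.

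MiR-342-5p, the rarer arm, was measured at 155 and 631 CPM in wt NS libraries and at 151 and 574 CPM in 3'RR-deficient NS libraries. The Eµ-deficient NS library held 105 CPM. With LPS the level was 89.2 and 91.0 CPM in wt, 73.4 and 112 CPM in 3'RR-deficient and 107 CPM in Eµ-deficient cells. Both high values are those of the second NS libraries. In the wt and 3'RR-deficient cells all LPS values were below all NS values, which held for 12.9% of the 720 rows that passed the filter over these 8 libraries, whereas the Eµ-deficient libraries had about the same level with and without LPS.

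MiR-345-5p was near the lower end of what could be measured. It had 19.8 and 9.66 CPM in wt NS, 12.2 and 0.888 CPM in 3'RR-deficient NS and 13.7 CPM in Eµ-deficient NS cells. The second of the 3'RR-deficient values is 3 reads. With LPS it had 20.4 and 14.9 CPM in wt, 6.86 and 17.2 CPM in 3'RR-deficient and 12.4 CPM in Eµ-deficient cells, so that NS and LPS libraries overlapped throughout.

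MiR-345-3p was as rare. It had 13.8 and 5.99 CPM in wt NS, 11.8 and 7.40 CPM in 3'RR-deficient NS and 8.39 CPM in Eµ-deficient NS cells. In LPS libraries it had 29.8 and 20.5 CPM in wt, 25.9 and 11.7 CPM in 3'RR-deficient and 14.8 CPM in Eµ-deficient cells. The lowest LPS library was under the highest NS library, and 4 of the 5 LPS libraries were above all NS libraries. With 18 to 169 reads per library for this arm and 3 to 176 for miR-345-5p, the depth limits what can be seen of miR-345.

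**Figure D2:**
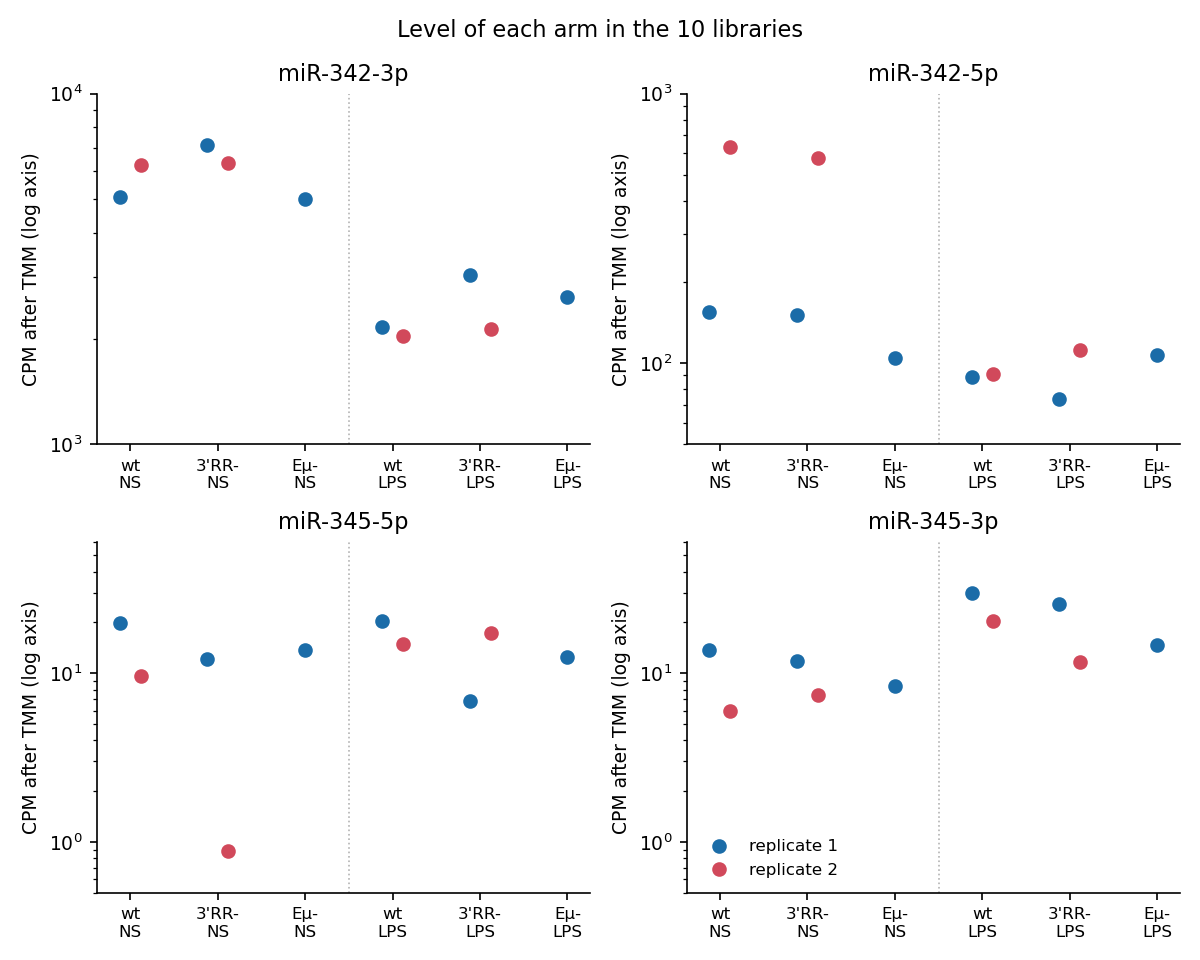
CPM of each arm (log axis) in every library, by genotype and condition, with replicate 1 in blue and replicate 2 in red. All 5 LPS libraries of miR-342-3p are under the 5 NS libraries, while the high miR-342-5p values are those of the second NS libraries.

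The response to LPS was tested in wt and 3'RR-deficient cells together, in an additive fit with edgeR's quasi-likelihood test over 720 microRNA rows (two-sided, Benjamini-Hochberg adjustment). Both miR-342 arms passed as lower, though each call was lost without some single libraries, and that of miR-342-5p also without both second NS libraries. MiR-342-3p fell by 1.40 on the log2 scale (SE 0.40, adjusted p = 0.0302), which is 2.64-fold, and miR-342-5p fell by 2.09 (SE 0.58, adjusted p = 0.0283), which is 4.25-fold. With a replicate block within culture condition, which takes out what the second NS libraries share, miR-342-5p was at -0.75 and did not pass (adjusted p = 0.13, edgeR), while miR-342-3p still passed (-1.08, adjusted p = 0.0162). The latter did not pass with no filter on low counts (-1.41, adjusted p = 0.088) or with all features of the table in the fit (-1.94, adjusted p = 0.0538, edgeR). Neither arm of miR-345 passed the test, with log2 differences of 0.53 for miR-345-5p (SE 0.68, adjusted p = 0.60) and 1.2 for miR-345-3p (SE 0.52, adjusted p = 0.125). All 4 arms passed the filter on low counts, and 2 of 4 passed the test. Over all rows tested 21.8% did so, 13.2% higher and 8.61% lower with LPS, and the median difference was 0.07. At an unadjusted p under 0.05 the share was 36.7%. The share of 21.8% itself depended on single libraries: it was 8.62% without wt LPS replicate 1, 9.24% without wt LPS replicate 2, 10.9% and 11.3% without one or the other 3'RR-deficient LPS library, 13.3% without either second NS library and 19.5% and 21.1% without a first one.

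The fall of miR-342-3p kept its size without both second NS libraries, at 1.44 on the log2 scale. It passed there (adjusted p = 0.0051 in the same edgeR test), with only the first NS library of each genotype left and 217 of 824 rows called. For miR-342-5p the difference without both was -0.83, and it no longer passed (adjusted p = 0.078). The miR-345 arms were then at -0.18 (5p, adjusted p = 0.795) and 0.71 (3p, adjusted p = 0.309). Leaving out single libraries ended the call of miR-342-3p without wt NS replicate 2 or any one of the 4 LPS libraries (difference -1.65 to -1.34 over all 8 omissions, adjusted p up to 0.0911). It ended that of miR-342-5p without either second NS library, either wt LPS library or 3'RR-deficient LPS replicate 1 (difference -2.60 to -1.48, adjusted p up to 0.0869).

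Within a single genotype the tests rested on 2 libraries against 2. In wt cells the LPS minus NS difference was -1.40 (SE 0.65) for miR-342-3p, -2.15 (SE 0.88) for miR-342-5p, 0.35 (SE 1.03) for miR-345-5p and 1.43 (SE 0.81) for miR-345-3p. In 3'RR-deficient cells these were -1.40 (SE 0.65), -2.03 (SE 0.88), 0.72 (SE 1.04) and 0.97 (SE 0.81). The miR-342-5p values hung on single NS libraries. With 1 NS library left, the difference in wt was -0.72 without NS replicate 2 and -3.14 without NS replicate 1. In 3'RR-deficient cells it was -0.92 without NS replicate 2 and -2.91 without NS replicate 1. Without both second NS libraries it was -0.70 in wt (adjusted p = 0.419) and -0.96 in 3'RR-deficient cells (adjusted p = 0.252), and miR-342-3p was at -1.19 and -1.68 (adjusted p = 0.166 and 0.0609, edgeR). MiR-345-3p was then at 0.96 in wt and 0.48 in 3'RR-deficient cells, and in the latter it was 0.044 without LPS replicate 1 alone. Of the 4 arms, 0 passed in wt, where the lowest adjusted p was 0.194 (edgeR), and 0 in 3'RR-deficient cells, where it was 0.238. At an unadjusted p under 0.05 it was 1 arm in each genotype, and the DESeq2 Wald test called 1 arm in wt (miR-342-3p, adjusted p = 0.044) and 0 in 3'RR-deficient cells. DESeq2 called 103 of all 720 rows in wt and 97 in 3'RR-deficient cells. Over all rows edgeR called 0.694% in wt and 0.972% in 3'RR-deficient cells, all of them higher with LPS, and at an unadjusted p under 0.05 the shares were 21.7% and 19.3%. The shares called by edgeR rose or fell when single libraries were left out. In Eµ-deficient cells, with 1 library a condition and hence no test, the log2 ratio of LPS to NS was -0.93 for miR-342-3p, 0.03 for miR-342-5p, -0.13 for miR-345-5p and 0.80 for miR-345-3p.

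Markers of other cells moved with LPS as well. The summed level of 3 erythroid microRNAs (miR-451a, miR-144-3p, miR-486a-5p) was 2499.9 to 7919 CPM in NS and 138 to 3569.6 CPM in LPS libraries. That of the 2 arms of the myeloid miR-223 went from 479 to 5032 CPM in NS to 82.4 to 512 CPM in LPS libraries. The 4 stromal and endothelial microRNAs (miR-143-3p, miR-145a-5p, miR-126a-3p, miR-199a-3p) summed to 209 to 1079 CPM in NS and 69.0 to 949 CPM in LPS libraries, and miR-122-5p of liver was at 0 to 5.62 CPM. The highest LPS value of the first 3 lists was that of the Eµ-deficient library. In the LPS comparison over both genotypes 1 of 3, 2 of 2 and 3 of 4 members of these lists were called lower, beside 2 lower and 1 higher of the 5 lymphocyte microRNAs and 8.61% lower and 13.2% higher over all rows. The part of such cells in the fall of miR-342 was not tested, and fewer cells of a type and less RNA per cell cannot be told apart in these libraries.

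**Figure D3:**
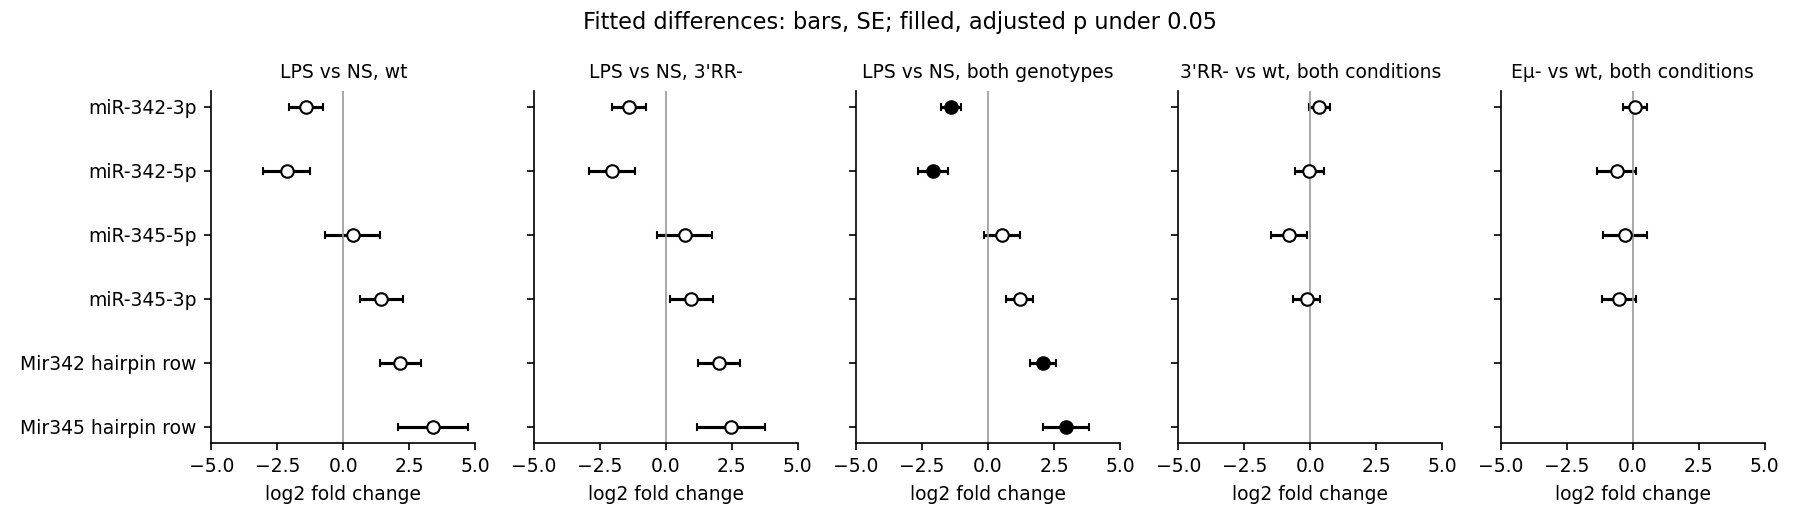
Log2 fold change (points) with its SE (bars) of the 4 arms in 5 comparisons, and of the 2 hairpin rows in the 3 LPS comparisons. Filled points have an adjusted p under 0.05. In the LPS comparison over both genotypes the miR-342 arms are at -1.40 and -2.09 and the hairpin rows at 2.09 and 2.94.

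The hairpin rows of both loci were higher with LPS in wt and 3'RR-deficient cells, unlike the miR-342 arms. The Mir342 row had 132 and 10 counts in wt NS, 91 and 31 in 3'RR-deficient NS and 68 in Eµ-deficient NS libraries. With LPS it had 185 and 254 counts in wt, 172 and 388 in 3'RR-deficient and 139 in Eµ-deficient libraries. In CPM this is 3.33 to 14.8 in the 5 NS libraries, 38.0 to 52.6 in the 4 wt and 3'RR-deficient LPS libraries and 12.2 in the Eµ-deficient LPS library. The wt and 3'RR-deficient LPS libraries were all above the NS libraries, as in 18.9% of the 720 rows over these 8 libraries, and the Eµ-deficient LPS library was within the NS range. Over both conditions the Mir342 row did not pass in Eµ-deficient against wt (-0.95 on the log2 scale, SE 0.68, adjusted p = 0.628) or against 3'RR-deficient cells (-1.17, SE 0.69, adjusted p = 0.49, edgeR).

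The Mir345 row was sparser, with 15 and 0 counts in wt NS, 7 and 7 in 3'RR-deficient NS and 23 in Eµ-deficient NS libraries. A count of 0 in the second wt library allows up to 0.999 CPM (3 counts). With LPS the row had 27 and 94 counts in wt, 54 and 30 in 3'RR-deficient and 174 in Eµ-deficient libraries. All 5 LPS libraries (4.07 to 15.2 CPM) were above all 5 NS libraries (0 to 2.38 CPM), as in 11.2% of rows.

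In the LPS comparison over both genotypes the Mir342 row rose by 2.09 on the log2 scale (SE 0.50, adjusted p = 0.0149, edgeR) and the Mir345 row by 2.94 (SE 0.87, adjusted p = 0.0355). Without both second NS libraries both rows still passed in edgeR, at 1.55 and 2.74 (adjusted p = 0.0112 and 0.0166), among 217 of 824 rows called. Within wt the differences were 2.16 (SE 0.78) and 3.41 (SE 1.32), and within 3'RR-deficient cells 2.02 (SE 0.78) and 2.47 (SE 1.29). None of these 4 passed in the main edgeR fit. At an unadjusted p under 0.05 there were 3, as were 21.7% of all rows in wt and 19.3% in 3'RR-deficient cells. The adjusted p in this edgeR fit were 0.153 and 0.185 for the wt cells. For the 3'RR-deficient cells they were 0.196 and 0.335. Without both second NS libraries the wt differences were 1.45 and 2.60 and the 3'RR-deficient ones 1.66 and 2.91. Leaving out single libraries gave 1.44 (without NS replicate 2) to 3.19 (without NS replicate 1) for the Mir342 row in wt, and 2.58 without NS replicate 2 for the Mir345 row in wt. Without wt NS replicate 1 only a library of 0 Mir345 counts is left in that group, so no fold is given. In 3'RR-deficient cells the Mir345 row was at 1.32 without LPS replicate 1 and at 3.01 without LPS replicate 2. The DESeq2 Wald test called the Mir342 row in both genotypes (adjusted p = 0.044 and 0.047), among 103 of 720 rows called in wt and 97 in 3'RR-deficient cells. Without wt LPS replicate 1, wt LPS replicate 2 or 3'RR-deficient LPS replicate 2 the adjusted p of the Mir342 row was 0.0515 to 0.058 over both genotypes. That of the Mir345 row was 0.0517 to 0.137 in the 5 of 8 cases where it lost its call, namely without either first NS library, either wt LPS library or 3'RR-deficient LPS replicate 1. The Mir345 row also lost its call with the replicate block within culture condition (2.88, adjusted p = 0.0553). With all features of the table in the fit neither row passed (1.34 with adjusted p = 0.168 for Mir342, 2.27 with adjusted p = 0.116 for Mir345, edgeR).

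The hairpin rows tested give the background for these differences. Of 113 hairpin rows tested, 82 had a log2 difference above 0, 23 were called higher and 1 lower, and their median was 0.82. Of 607 mature rows 290 were above 0, 72 were called higher and 61 lower, and the median was -0.14. The Mir342 and Mir345 rows are among the 23 called higher.

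The reads of both arms were also set against those of the hairpin row within each library. For miR-342 there were 353 and 2064 arm reads per hairpin read in wt NS, 606 and 751 in 3'RR-deficient NS and 727 in Eµ-deficient NS libraries. With LPS there were 58.3 and 55.5 in wt, 81.8 and 42.5 in 3'RR-deficient and 226 in Eµ-deficient libraries. The NS and LPS ranges did not overlap, as in 17.6% of the 17 hairpins (matched to their arms by position) that had hairpin and mature reads in all 10 libraries, and the Eµ-deficient LPS library was the highest of its condition. For miR-345 the ratio was 4 to 25.9 in the 4 NS libraries with hairpin reads and 1.79 to 8.93 in the 5 LPS libraries, which overlap. The deposited table counts mature reads apart from hairpin reads, since the Mir342 row had fewer counts than either arm in every library. How reads were shared out between them is not given in the sources used here.

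**Figure D4:**
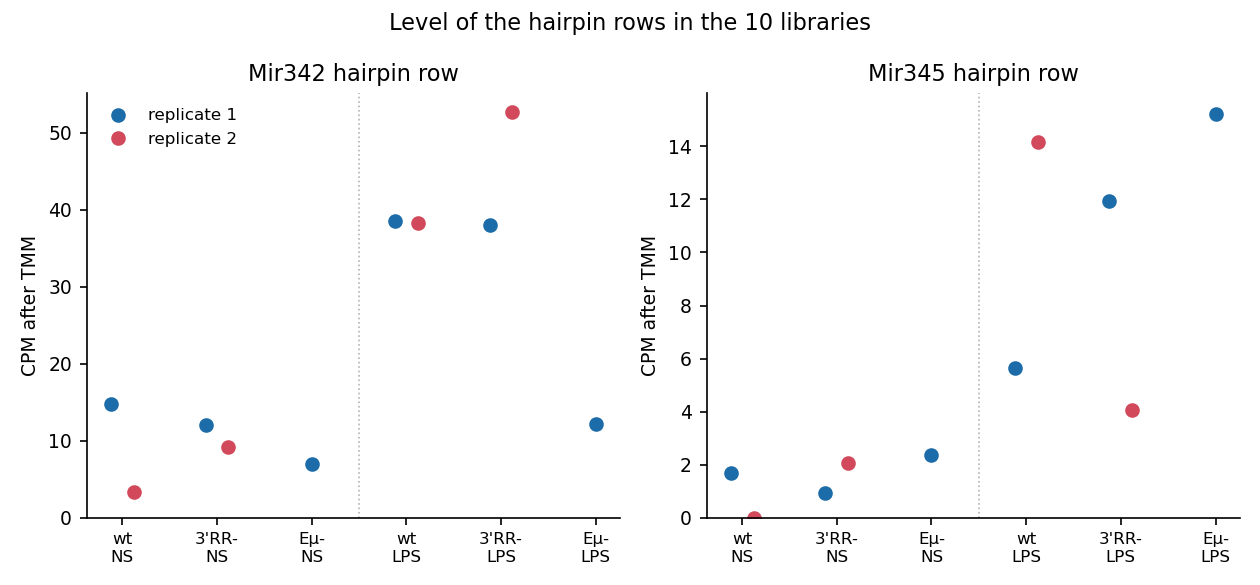
CPM of the Mir342 and Mir345 hairpin rows in every library, with replicate 1 in blue and replicate 2 in red. The Mir342 row is at 38.0 to 52.6 CPM in the 4 wt and 3'RR-deficient LPS libraries and at 12.2 CPM in the Eµ-deficient one.

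The share of the 5p arm compares both arms within a library, so library scaling does not enter it. The 5p arm held 2.96% (Wilson 95% interval 2.81 to 3.12) and 9.18% (8.80 to 9.59) of the miR-342 reads in the wt NS libraries. In 3'RR-deficient NS libraries it held 2.07% and 8.33%, and in the Eµ-deficient NS library 2.05%. With LPS it held 3.97% and 4.28% in wt, 2.36% and 5.01% in 3'RR-deficient and 3.91% in Eµ-deficient cells. The second NS libraries again stood apart, far beyond counting error. The mean log2 ratio of 5p to 3p was -4.66 with LPS and -4.59 without, a difference of -0.07 (exact two-sided permutation test over 5 against 5 libraries, p = 0.881). Without both second NS libraries the difference turned to 0.73, which did not pass either (adjusted p = 0.286 over the 4 arm ratio tests, exact permutation).

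The arms of miR-345 were closer to each other in reads than those of miR-342. The 5p arm held 58.9% (53.2 to 64.3) and 61.7% (47.4 to 74.2) of the reads in wt NS, 50.8% (43.6 to 58.0) and 10.7% (3.71 to 27.2) in 3'RR-deficient NS and 62.0% (55.3 to 68.2) in Eµ-deficient NS libraries. With LPS it held 40.7% and 42.1% in wt, 20.9% and 59.6% in 3'RR-deficient and 45.7% in Eµ-deficient cells. The mean log2 ratio was -0.52 with LPS and -0.19 without, a difference of -0.33 (exact two-sided permutation, p = 0.643). Between genotypes the difference of 3'RR-deficient from wt cells was -0.31 for miR-342 (p = 0.629) and -1.09 for miR-345 (p = 0.314) in the exact permutation test over 4 against 4 libraries. The adjusted p over the 4 tests were 0.857 to 0.881, and the smallest p these designs allow are 0.0079 and 0.0286.

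**Figure D5:**
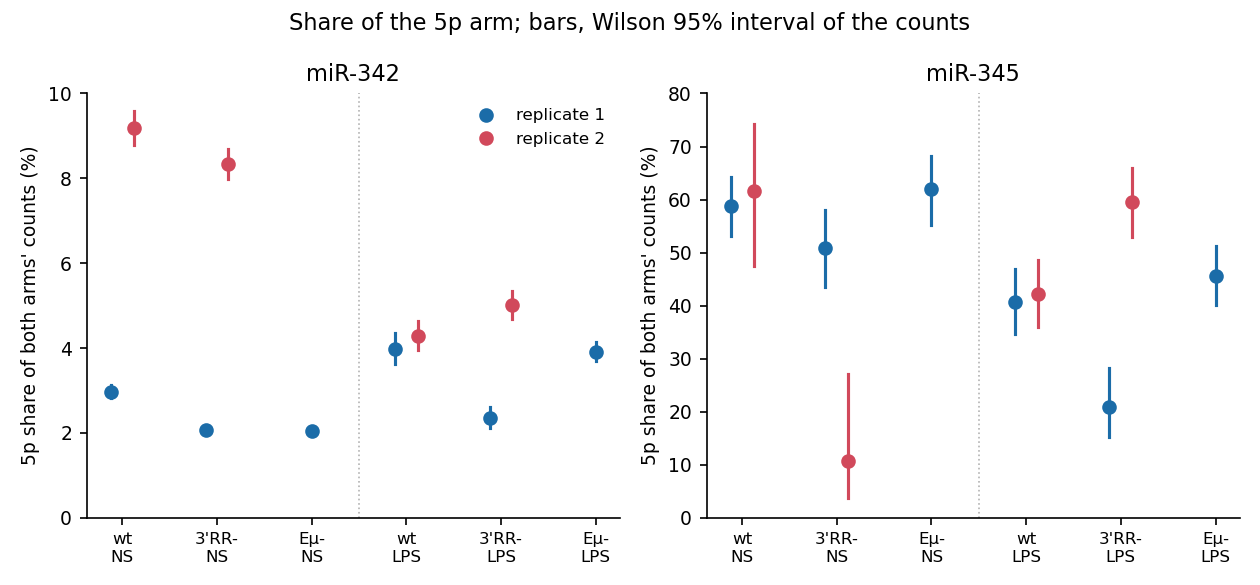
Share of the 5p arm in the reads of both arms, per library, with Wilson 95% intervals that cover counting error only. For miR-342 the second NS libraries are at 9.18% and 8.33% and the other libraries at 2.05% to 5.01%, and for miR-345 the intervals are wide.

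The series compares B-cells with and without an IgH enhancer, and these 2 loci are on the chromosome of IgH. In 3'RR-deficient against wt cells over both conditions the log2 differences were 0.34 for miR-342-3p (SE 0.39), -0.03 for miR-342-5p (SE 0.55), -0.80 for miR-345-5p (SE 0.68) and -0.14 for miR-345-3p (SE 0.52), and the adjusted p were all 0.997 (edgeR). For miR-342-3p the difference was 0.34 in NS (SE 0.63) and 0.34 in LPS cells (SE 0.63), each with an adjusted p of 1.00, and without both second NS libraries the NS value was 0.86 (SE 0.60, adjusted p = 1.00). It was larger in the first replicates of both conditions, where the log2 ratio (3'RR-deficient over wt) was 0.49, against 0.02 (NS) and 0.06 (LPS) in the second ones. Its LPS responses in both genotypes differed by 0.001 (SE 0.89, adjusted p = 1.00 in edgeR's interaction test).

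Of the 4 arms, 0 passed in any of these 4 genotype comparisons, by edgeR, by an unadjusted p under 0.05 or by the DESeq2 Wald test. Over all rows edgeR called 0% in NS, 0% in LPS, 0.139% over both conditions and 0% for the difference of responses, and at an unadjusted p under 0.05 these shares were 1.25%, 2.08%, 2.92% and 0.694%. With the replicate block within culture condition the calls over all rows were 1, 2, 7 and 0 in place of 0, 0, 1 and 0, and with the DESeq2 Wald test 1, 2, 2 and 0. The standard errors over both conditions were 0.39 to 0.68 log2 units, so differences of that size were not detectable with these libraries.

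Eµ-deficient cells were compared with wt with the 2 conditions as a second term. This fit took in all 10 libraries, and 988 rows passed its filter. The log2 differences were 0.09 for miR-342-3p (SE 0.46), -0.61 for miR-342-5p (SE 0.73), -0.29 for miR-345-5p (SE 0.83) and -0.51 for miR-345-3p (SE 0.65), with adjusted p of 0.806 to 0.951. Of the 4 arms, 0 passed against wt and 0 against 3'RR-deficient cells, by edgeR, by an unadjusted p under 0.05 or by the DESeq2 Wald test. Over all rows edgeR called 1.62% against wt (1.42% higher, 0.202% lower) and 2.02% against 3'RR-deficient cells (1.72% higher, 0.304% lower), and 11.4% and 12.1% had an unadjusted p under 0.05. The second wt NS library moved the miR-342-5p difference. In NS cells the log2 ratio of Eµ-deficient to wt for this arm was -0.56 against replicate 1 and -2.59 against replicate 2, and with LPS it was 0.27 and 0.24. For miR-342-3p the ratio was -0.016 and -0.31 against the wt NS libraries and 0.29 and 0.37 against the wt LPS libraries, so that the Eµ-deficient library was below both in NS and above both in LPS cells. With 1 Eµ-deficient library a condition this was not tested within a condition.

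The neighbours of the loci had few counts in the wt and 3'RR-deficient libraries and more in the Eµ-deficient ones. Within 1 Mb there were 0 other mature rows on the side away from IgH and 0 between the 2 hairpins. On the side of IgH there were 75, all of them beyond Dlk1, and the nearest, miR-770-5p and miR-770-3p (727 kb from miR-345), had at most 2 and 1 counts in a library. The 75 rows summed to 83 to 229 counts in wt and 3'RR-deficient libraries and to 1546 and 3014 counts in the Eµ-deficient NS and LPS libraries. Of 101 other microRNA rows within 10 Mb of Ighm, 48 passed the filter on low counts once the Eµ-deficient libraries were included and 16 without them. Most of the 48 thus passed only with the Eµ-deficient libraries, where the summed counts were high, and their differences between Eµ-deficient and other cells are not read. The 16 rows had medians of opposite sign between genotypes and conditions. For LPS against NS the median was 0.50 for wt, -2.63 for 3'RR-deficient cells and -0.79 over both (0.07 over all rows tested). For 3'RR-deficient against wt it was 1.2 in NS, -0.27 in LPS and -0.34 over both conditions (0.001 over all rows). In these 6 comparisons edgeR called 0 of the 16, at most 2 had an unadjusted p under 0.05 in any of them, and the DESeq2 Wald test called 1 in 3'RR-deficient cells and 1 over both genotypes for LPS and 0 in the other 4. In those 2 LPS comparisons DESeq2 called 97 and 247 of all 720 rows. EdgeR called 0.972% and 21.8% there, and 19.3% and 36.7% had an unadjusted p under 0.05.

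The microRNAs whose profile over the 10 libraries was most like that of miR-342-3p were miR-744-5p, miR-652-3p and miR-501-3p. The root mean square difference of their centred log2 CPM from that of miR-342-3p was 0.33, 0.35 and 0.39, beside a median of 1.00 over 154 mature microRNAs with a mean of at least 100 CPM. MiR-652-3p went from a mean of 2115 CPM in NS to 1006 CPM in LPS libraries. For miR-342-5p the closest were miR-423-5p (0.24), let-7d-3p (0.35) and miR-1198-5p (0.36), beside a median of 1.40, and none of these was named for miR-342-3p. The 2 arms of miR-342 were 0.76 apart, below both medians.

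Among 7 microRNAs known from B-cells, 3 passed the LPS test over both genotypes in edgeR, 1 higher and 2 lower, and the median difference was 0.92. Over all rows 13.2% were called higher and 8.61% lower in this comparison, and the median was 0.07. MiR-155-5p, which is needed for normal class-switched antibody responses, rose by 2.76 (SE 0.44, adjusted p = 0.0026), from 6216 to 8083 CPM in NS to 27430.4 to 100741 CPM in LPS libraries. The differences of these 7 microRNAs include the second NS libraries. MiR-150-5p, which is high in resting lymphocytes and targets Myb, fell by 2.45 (SE 0.42, adjusted p = 0.0039), and miR-181a-5p, a modulator of antigen receptor signalling, fell by 2.31 (SE 0.45, adjusted p = 0.0072). The fall of miR-342-3p on the same scale was 1.40. MiR-21a-5p, miR-146a-5p, miR-142a-3p and miR-142a-5p did not pass, with differences of 2.22, 1.32, 0.92 and -0.18 and adjusted p of 0.0723 to 0.889.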

How the data were processed

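The authors deposited a table of read counts per small RNA feature and library, not normalized. Per the submitters' processing notes, cutadapt 1.2.1, Bowtie2 and the mm10 build were used. The counting rule is not given in the sources used here. The NextFlex small RNA kit was used with 17 PCR cycles and 75 nt reads, on pools of 2 mice, with no molecular identifiers, so intervals cover counting error only.

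From these counts, microRNA rows were tested with edgeR 4.0.16 (R 4.3.3): filterByExpr by group, TMM scaling, a quasi-likelihood F-test and Benjamini-Hochberg adjustment over all rows tested, with 0.05 as threshold. Positions came from GENCODE M21 and sequences from RefSeq (all 4 arms and both hairpins matched). Arm ratios used a pseudocount of 0.5 and exact permutation (Python 3.11.15). Single library ratios used a prior count of 2. Folds were computed with ViennaRNA 2.7.2. Alternatives included DESeq2 1.42.0, other scalings and filters, replicate blocks, a GC loess (span 0.75) and leave-one-out fits. The tests were checked on simulated data of independent libraries. These held no deviation like that shared by the second NS libraries, so the check does not cover it. Named were the 4 arms, their hairpins, the nearest mature rows, 7 B-cell microRNAs, the 3 microRNAs of closest profile per arm of at least 100 CPM, and the marker lists. Members and lists were chosen with earlier results of these data known. The study's methods name no test for these counts.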

Additional observations from a re-analysis of the deposited data

Results flagged for a closer look

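Of 16 sets of 5 libraries examined, 1 held a library far from the others: the log2 ratio of the 5p to the 3p arm of miR-345 in NS cells was -2.87 in the second 3'RR-deficient library, and its gap to the next library was 0.82 of the whole range. Chance alone gives about 1 such library in 20 sets. The value rests on 3 reads of the 5p arm and 25 of the 3p arm, in one of the shallowest libraries.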

How the results depend on the processing

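The count of arms called in the LPS comparison over both genotypes, 2 in the report, became 1 with no filter, with all features of the table, with the replicate block within culture condition (alone or with the GC trend removed) and without both second NS libraries (with TMM or total count scaling), and 0 to 2 without single libraries. It became 1 in wt with the DESeq2 Wald test, and 0 to 1 without single libraries in wt or in 3'RR-deficient cells. The plain replicate block changed none of the member counts (2 of 4 over both genotypes, 0 elsewhere) and gave 156 calls in place of 157 over all rows, against 184 with the block within culture condition. The shared replicate numbers were not taken as pairs in the main fits. Replicate differences in NS and in LPS libraries correlated with r = -0.060 in wt and -0.17 in 3'RR-deficient cells, over 988 microRNA rows. Over all rows the calls within a genotype moved with the setting. In wt 5 became 103 with DESeq2, 27 with the replicate block, 99 with the block within culture condition and 50 with no filter. They became 38 with the GC trend removed and 78 with GC removed and the block within culture condition. There were 20 with all 10 libraries, 10 with total count scaling, 3 with mature rows alone and 0 with all features. In 3'RR-deficient cells 7 became 97, 11, 90, 31, 25, 50, 20, 10, 5 and 0 in the same order, and 15 with the stricter filter or with only the libraries compared. In both genotypes the calls also rose without both second NS libraries. DESeq2 gave 247 calls over both genotypes, 57 in place of 16 for Eµ-deficient against wt and 69 in place of 20 against 3'RR-deficient cells. For 3'RR-deficient against wt over both conditions 1 call became 7 with the block within culture condition. The Eµ counts were 105 and 102 with the block within culture condition, 156 and 164 with all features, 47 and 45 with no filter, 71 and 82 without both second NS libraries, 1 and 0 without the Eµ-deficient LPS library and 0 to 37 over all single omissions. Pairing with crossed numbers, added after the data were seen, gave 87 calls for wt, 83 for 3'RR-deficient cells and 222 over both. The Mir342 hairpin row was among the 87 (2.31, adjusted p = 0.0477, edgeR). With no filter, miR-342-3p kept its difference but had an adjusted p of 0.088 in edgeR, and with all features 0.0538. The difference of miR-342-5p with the block within culture condition was -0.75 (adjusted p = 0.13).

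Differences that never passed the test turned sign or moved as follows. MiR-345-5p with LPS gave, for all features, -0.27 (wt), -0.33 (3'RR-deficient) and -0.30 (both). Without both second NS libraries it gave -0.072, -0.30 and -0.18, with the block within culture condition -0.70 in wt and -0.22 over both, and with GC removed as well -1.01 and -0.44. Without single libraries the wt value was -0.087 to 0.55 and the 3'RR-deficient one -0.25 to 3.42. In 3'RR-deficient against wt cells miR-342-5p gave 0.0031 with all features, 0.018 with the block within culture condition and 0.16 without both second NS libraries, and -0.41 to 0.53 without single ones, where miR-345-5p gave -1.51 to -0.34, miR-345-3p -0.38 to 0.11 and miR-342-3p -0.059 to 0.58 in NS and -0.060 to 0.73 in LPS cells. The difference of the LPS responses of miR-342-3p was -0.032 with total count scaling, -0.13 with all features, -0.070 with the block within culture condition, -0.48 without both second NS libraries, -0.43 with total count scaling as well, and -0.41 to 0.48 without single libraries. Against wt, Eµ-deficient miR-342-5p gave 0.033 with the replicate block, 0.17 with GC removed and the block within culture condition, 0.23 without both second NS libraries, 0.39 with total count scaling as well, and -1.61 to 0.19 without single ones. MiR-345-5p gave 0.041 there with total count scaling and -0.67 to 0.26 without single libraries. The arm ratio of miR-342 with LPS gave 0.73 without both second NS libraries and -0.32 to 0.25 without single ones, that of miR-345 -1.0 to 0.013, and the genotype difference of miR-342 -0.71 to 0.044 and of miR-345 -1.62 to -0.48, with -0.48 without the second 3'RR-deficient NS library. The cause was not tested. Omissions that leave a group with 1 library assume that it varies like the others. MiR-345, with 3 to 176 reads per arm and library, is limited by depth.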
